A study of Mus musculus with 38 samples.

Results

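Trim28 and 8 genes that act with it or resemble it were followed through all the expression libraries of the study. They are the paralogs Trim24 and Trim33, the histone methyltransferase Setdb1, the heterochromatin proteins Cbx1, Cbx3 and Cbx5, and the chromatin remodellers Chd3 and Chd4. They were chosen as a family with its known partners, with earlier results of these data known, and all 9 were found among the 55298 genes of the count table and passed the filter on low counts in every bulk experiment.

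Trim28 is a scaffold protein that does not read DNA sequence itself. Zinc finger proteins with a KRAB domain bring it to DNA, many of them to endogenous retroviruses (ERVs), and it recruits Setdb1, which trimethylates lysine 9 of histone H3. HP1 proteins bind that mark and compact chromatin: Cbx5 is HP1 alpha, Cbx1 HP1 beta and Cbx3 HP1 gamma. Chd3 and Chd4 are alternative ATPases of NuRD, a complex that remodels nucleosomes and removes acetyl groups from histones. Trim24 and Trim33 share the domain layout of Trim28 within the TIF1 family, and are better known as a coregulator of nuclear receptors and as a regulator of Smad signalling. In the brain, Trim28 is known for silencing ERVs in dividing neural progenitors.

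The study removed Trim28 in 5 settings and sequenced polyadenylated RNA from 32 bulk libraries. NPCs were neural progenitor cultures from the embryonic forebrain of Rosa26-Cas9 knock-in mice, whose cells all carry Cas9-GFP. They received a lentivirus with 1 of 3 guides against Trim28 (6 Trim28-KO libraries) or with a guide against the bacterial gene lacZ (2 controls), and transduced cells were sorted after 10 days. In adult Cas9-GFP knock-in mice, an AAV with the same guides and a nuclear reporter driven by the neuronal synapsin promoter was injected into the striatum, and reporter-positive nuclei were sorted after 2 months (4 Trim28-KO animals, of which 1 received all 3 guides, and 1 lacZ control). Stop-Cas9-GFP knock-in mice make Cas9 only where Cre acts, and were injected with the guides together with Cre under the synapsin promoter (4 Trim28-KO, 1 lacZ). Adult Trim28-flox mice (+/- and +/+) were injected with AAVs for Cre or nuclear GFP under the synapsin promoter, and GFP-positive nuclei were sorted after 2 months (4 labelled Trim28-KO, 4 labelled control). The labels give all 8 of these libraries as floxed mice, and do not say which genotype or vectors each had. The Emx1-Cre experiment used cortex at 3 months of age. The study's methods give Emx1-Cre (+/-) animals with both Trim28 alleles floxed (3 Trim28-KO) or with 1 of them floxed (3 controls). Such controls had also lost 1 allele. A figure legend of the study instead calls the controls Cre-negative, and the sample titles do not settle this. Emx1-Cre acts in progenitors of the dorsal forebrain, whose progeny include cortical excitatory neurons, astrocytes and oligodendrocytes, and not in interneurons or microglia. Cortical nuclei of 2 of these Trim28-KO animals and 2 of the controls were also sequenced singly.

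The bulk libraries held 8790346 to 25345083 reads assigned to genes (median 17398946). The progenitor markers Nes, Sox2, Vim and Fabp7 summed to 3468 to 7293 CPM (counts scaled to the library total) in NPC libraries, where 3 neuronal markers summed to 18.2 to 75.9 CPM, and the sorted nuclei were rich in striatal neuron markers (a sum of 947 to 1444 CPM over 4 genes). Glial RNA was not absent from the nuclei sorted as neurons, whose 4 oligodendrocyte markers summed to 104 to 339 CPM. In the Trim28-flox libraries the targeted gene went against the labels, as given below, so these groups are called by their labels throughout.

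The 3 guides are shown because the residual Trim28 RNA is compared between them. All match the reverse strand of chromosome 7 in GRCm38, in coding exons of transcript Trim28-201 (17 exons, 2502 coding bases), and the capitals mark the PAM, the bases that Cas9 requires beside its target.
g3: gcactccacacaatagctagTGG
g4: ggtccttgtgagcgttgagcTGG
g13: cgcactggttacacatgaccAGG
Guide g3 lies at chr7:13025675-13025697 in exon 3 and its expected cut falls after 19.7% of the coding sequence. Guide g4 lies at chr7:13027726-13027748 in exon 4, after 28.1%, and guide g13 at chr7:13029921-13029943 in exon 13, after 76.5%. A frameshift at any of these sites can leave RNA that the whole-gene count still records, so the count shows the RNA level and not the share of edited alleles.

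Because Trim24 and Trim33 are paralogs, the coding exons of both were searched on both strands for the site most like each guide that ends in the bases NGG. The nearest sites to g4 are shown, as the closest match of the search lies among them, with bases that differ from the guide in capitals.
Trim24, exon 11, chr6:37951513-37951535, reverse strand: TgCActtgtgaTTgtGgGgctgg
Trim33, exon 1, chr3:103279998-103280020, forward strand: ggtGctGgtgGAGgAGgagGagg
The Trim24 site had 7 mismatches to g4 (G1T, T3C, C4A, G12T, C13T, T16G and A18G, counted from the 5′ end of the guide, with the base of the guide first). The Trim33 site had 8 (C4G, T7G, A11G, G12A, C13G, T15A, T16G and C20G). The nearest sites to g3 had 9 mismatches in Trim24 and 10 in Trim33, and those to g13 had 10 and 9. The sites searched numbered 335 in Trim24 and 379 in Trim33.

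Trim28 was lower in the Trim28-KO libraries of NPCs and of Emx1-Cre cortex, and higher in the libraries labelled Trim28-KO of the Trim28-flox mice. The change in the Cas9 nuclei did not pass the test. Values are CPM after TMM normalisation, fold changes are log2, Trim28-KO minus control, with the standard error (SE), and p is from the quasi-likelihood test of edgeR, adjusted over all genes tested in that experiment. Calling a gene took both a change of more than 0.5 on the log2 scale, up or down, and an adjusted p below 0.05.

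**Figure D1:**
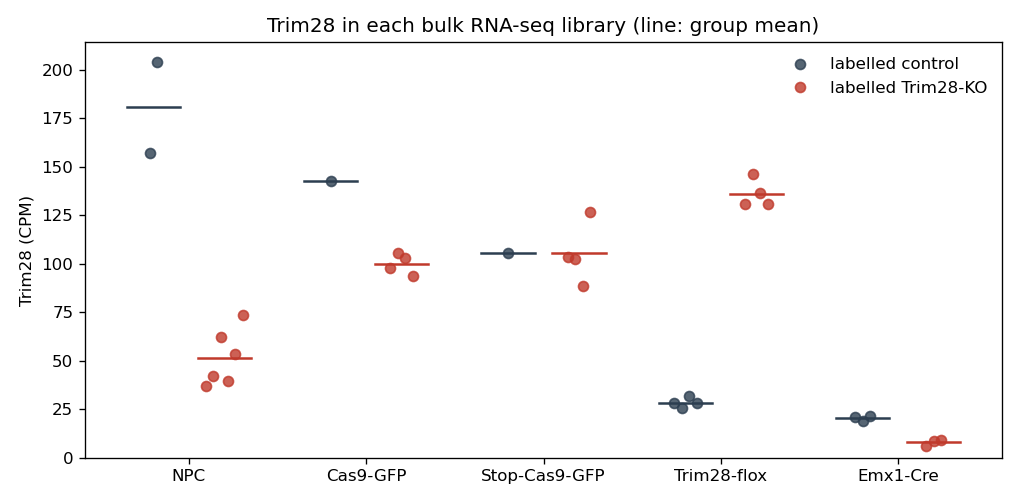
Trim28 in each of the 32 bulk libraries, in CPM on the vertical axis, by experiment and label. Points are libraries and lines are group means. The groups do not overlap in NPC, Cas9-GFP, Trim28-flox and Emx1-Cre, where 6.85, 45.2, 3.37 and 13.9% of all genes do not. In Trim28-flox the libraries labelled Trim28-KO lie above those labelled control.

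In NPCs, Trim28 stood at 36.8 and 39.6 CPM with g3, at 42.2 and 53.4 with g4 and at 62.3 and 73.6 with g13, against 157 and 204 in the lacZ libraries. Each Trim28-KO library was below both controls, and 6.85% of all genes did not overlap between the groups. The means were 51.3 ± 14.5 (SD, n = 6) and 181 ± 33.4 CPM (n = 2), a log2 fold change of -1.82 (SE 0.253, adjusted p = 0.0310), or 28.4% of control. Of all genes 0.194% were called, 0.176% higher and 0.0182% lower. The exact permutation test (two-sided) gave p = 0.0357, the smallest it allows. The direction held without any 1 library, but the adjusted p was over 0.05 without 6 of the 8. It was 0.226 without the lacZ library at 157 CPM and 0.414 without the one at 204 CPM, and between 0.0675 and 0.0905 without either g4 library, without the g3 library at 39.6 CPM or without the g13 library at 62.3 CPM. The study's methods describe its groups as biological replicates, and the NPC libraries carry numbers of 2 series whose difference is not stated in the sources used here.

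In nuclei of Cas9-GFP mice, Trim28 stood at 105 CPM with g3, 93.8 with g4, 97.7 with g13 and 103 with the guides combined, against 143 CPM in the only control. All 4 lay below it, but with 1 control library 45.2% of all genes did not overlap between the groups. The change of -0.51 (SE 0.154) had an adjusted p of 0.415, in a fit where 0 genes were called. In Stop-Cas9-GFP mice the values were 102, 127, 103 and 88.5 CPM in the same order, against 105 in the control, and the groups overlapped. The change there was -0.003 (SE 0.238, adjusted p = 1.00). With 1 control library in each line, the exact permutation test cannot give p under 0.2, and the fit assumes that the control varies like the Trim28-KO libraries.

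The Trim28-flox nuclei went the other way. The libraries labelled Trim28-KO held 131, 146, 136 and 131 CPM and the libraries labelled control 28.1, 25.6, 31.6 and 28.1 CPM. The groups were apart by a wide gap, and 3.37% of all genes did not overlap between them. The means were 136 ± 7.41 and 28.4 ± 2.46 CPM (SD, n = 4 each), a log2 fold change of 2.26 (SE 0.102, adjusted p = 2.74e-06), or 479% of the labelled control, where 0.0117% of all genes were called higher and 0.0292% lower. The exact permutation test gave p = 0.0286, the smallest that 70 splits allow. In TPM, which scale counts to gene length as well as to the library total, the libraries labelled Trim28-KO averaged 148, beside 144 and 124 in the lacZ nuclei of the Cas9-GFP and Stop-Cas9-GFP lines, and the libraries labelled control 29.9. The titles and the column names of the count table give both groups the same labels, so the mismatch could not be settled from them and no direction of a knockout is read from this experiment.

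In Emx1-Cre cortex, Trim28 stood at 6.08, 8.53 and 8.88 CPM in the Trim28-KO animals and at 20.9, 19.0 and 21.4 CPM in the controls. The groups did not overlap, as was so for 13.9% of all genes. The means were 7.83 ± 1.52 and 20.4 ± 1.28 CPM (SD, n = 3 each), a log2 fold change of -1.39 (SE 0.1503, adjusted p = 0.000378). Of all genes 0.86% were called higher and 0.467% lower. Residual Trim28 was 38.2% of the control, which by the study's methods had itself lost 1 allele in the Emx1 lineage. In tissue, fewer cells of a type and less RNA per cell cannot be told apart. Exact permutation cannot go below p = 0.1 with 3 animals against 3, and it gave 0.1. Of 11 marker lists, 4 did not overlap between these groups. The 4 oligodendrocyte markers summed to 2788 to 2828 CPM in Trim28-KO and to 3595 to 3708 CPM in control cortex, and the 4 meningeal or vascular markers to 101 to 127 and 137 to 151 CPM. The inhibitory markers summed to 679 to 801 and 807 to 929 CPM, and the progenitor markers were higher in Trim28-KO, at 149 to 189 against 115 to 131 CPM. The part of these in the Trim28 difference was not tested. The library of the Trim28-KO animal at 8.88 CPM stood apart in its TMM factor, 0.592 against 0.751 to 0.795 in the other 5, and the change without it was -1.48 (adjusted p = 7.56e-06).

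The Trim28 changes were compared with each other in 1 fit of all 32 libraries, as a difference of changes for each of the 10 pairs of experiments. The difference was called in 5 pairs, where 0.0526% of all genes were called for NPC minus Stop-Cas9-GFP, 0.215% for NPC minus Trim28-flox, 0.15% for Cas9-GFP minus Trim28-flox, 0.0283% for Stop-Cas9-GFP minus Trim28-flox and 0.117% for Trim28-flox minus Emx1-Cre. Among the experiments whose labels Trim28 does not contradict, the difference was called only for NPC and Stop-Cas9-GFP, at -1.88 (SE 0.333, adjusted p = 0.0132). That call was lost when only the libraries of these 2 experiments were fitted (-1.87, adjusted p = 0.415). The background in the pairs not called was 0.126% for NPC minus Cas9-GFP, 0.109% for NPC minus Emx1-Cre, 0.0364% for Cas9-GFP minus Stop-Cas9-GFP, 0.0445% for Cas9-GFP minus Emx1-Cre and 0.0081% for Stop-Cas9-GFP minus Emx1-Cre. The NPC and Cas9-GFP changes differed by -1.37 (SE 0.327, adjusted p = 0.0821, called by DESeq2 with -1.29 and adjusted p = 0.0428), and those of NPC and Emx1-Cre by -0.42 (SE 0.269, adjusted p = 1.00). The Cas9-GFP and Stop-Cas9-GFP changes differed by -0.51 (SE 0.361, adjusted p = 0.840). Stop-Cas9-GFP and Emx1-Cre differed by 1.45 (SE 0.336, adjusted p = 0.256), and Cas9-GFP and Emx1-Cre by 0.94 (SE 0.330, adjusted p = 0.343). A difference that was not called is not shown to be absent. None of the other 8 genes had a called difference in any pair.

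**Figure D2:**
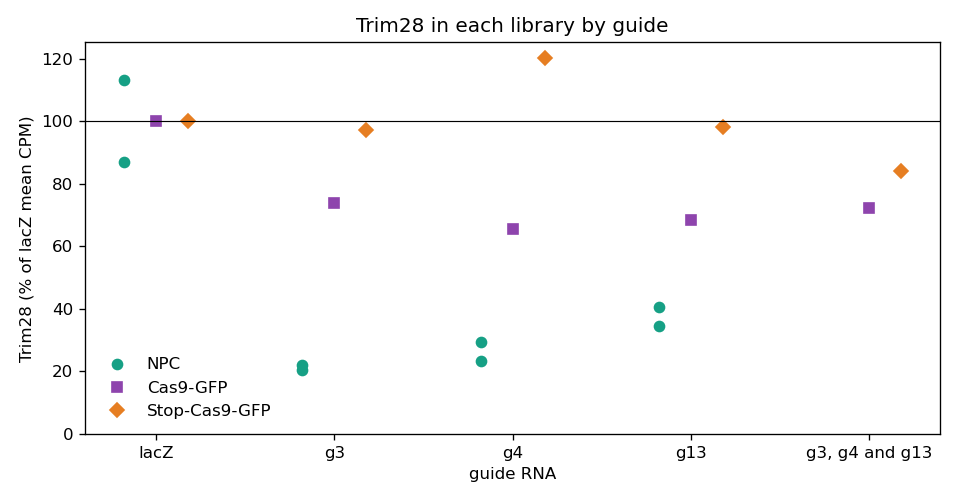
Trim28 in each library as a percentage of the mean lacZ CPM of its experiment (vertical axis), by guide (horizontal axis), with 100% marked by a line. NPC libraries lie lowest with g3 and highest with g13, while the Cas9-GFP nuclei lie between 65.6 and 73.8% and the Stop-Cas9-GFP nuclei between 83.9 and 120%.

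Relative to the lacZ mean of each experiment, the NPC libraries kept 20.4 and 21.9% of Trim28 with g3, 23.4 and 29.5% with g4, and 34.5 and 40.7% with g13. With 2 libraries a guide no test between guides was run, and the pairs do not overlap. Cas9-GFP nuclei kept 73.8% with g3, 65.6% with g4, 68.4% with g13 and 72.1% with the 3 combined. Stop-Cas9-GFP nuclei kept 97.2, 120, 98.1 and 83.9%. The order of the guides in NPCs was not seen in either line of nuclei, where each guide had 1 animal and animal and guide cannot be told apart.

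**Figure D3:**
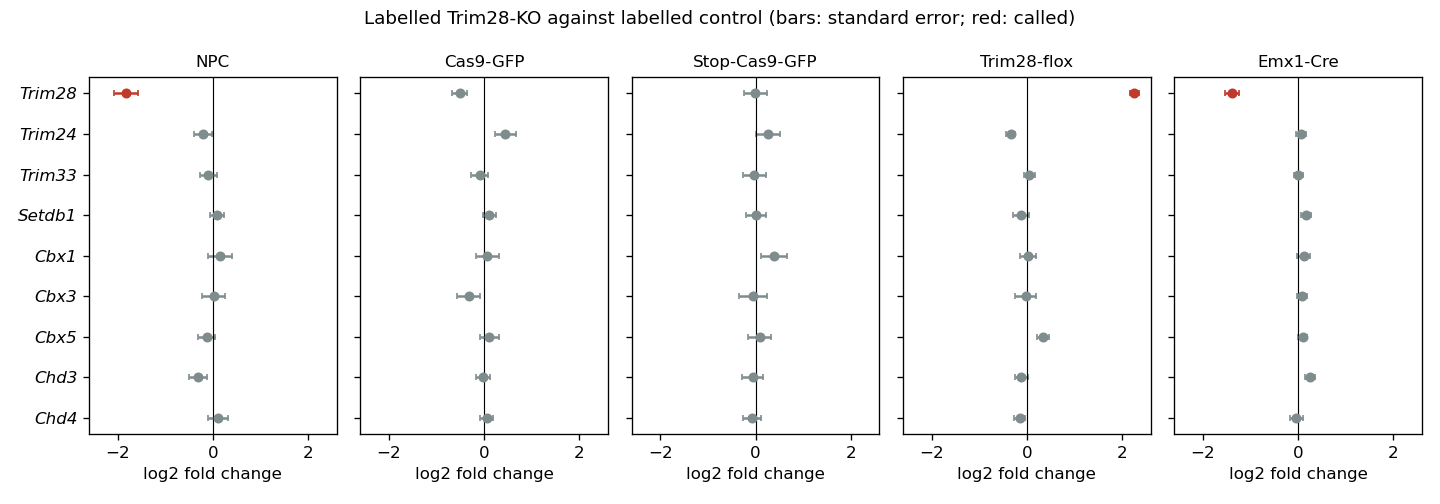
Log2 fold change of the 9 genes in each experiment, labelled Trim28-KO against labelled control, with bars for the standard error and called genes in red. Trim28 is the only gene in red, in NPC, Trim28-flox and Emx1-Cre, and the other 8 lie between -0.34 and 0.45.

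None of the other 8 genes was called in any experiment. The background share of genes called was 0.194% in NPC, 0 in both Cas9 lines, 0.0409% in Trim28-flox and 1.33% in Emx1-Cre, so 0 calls among 8 genes is near the background in each. Without adjustment, p was under 0.05 for 2 of the 8 in Trim28-flox, 1 in Emx1-Cre and 0 elsewhere, beside 4.74% of all genes in Trim28-flox, 9.15% in Emx1-Cre, 4.57% in NPC, 8.21% in Cas9-GFP and 2.44% in Stop-Cas9-GFP, and DESeq2 also called 0 in each. The median change of the 8 was -0.04 in NPC, 0.06 in Cas9-GFP, -0.01 in Stop-Cas9-GFP, -0.07 in Trim28-flox and 0.09 in Emx1-Cre, beside medians over all genes of 0.01, 0.05, 0.03, 0.01 and 0.01.

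Trim24 and Trim33, the paralogs, did not pass the test in any experiment. In NPCs, Trim24 averaged 79.2 ± 13.8 CPM in Trim28-KO (n = 6) and 90.9 ± 11.9 in lacZ libraries (n = 2), a change of -0.20 (SE 0.187). In Cas9-GFP nuclei the 4 Trim28-KO libraries held 44.6 to 62.2 CPM, above the 38.9 of the control (0.45, SE 0.224, adjusted p = 0.631). In Stop-Cas9-GFP nuclei they held 58.8 to 66.02 CPM against 51.1 (0.26, SE 0.243). In Trim28-flox, the libraries labelled Trim28-KO held 55.1, 54.2, 61.4 and 57.3 CPM and those labelled control 70.1, 77.6, 71.4 and 69.4. That is a change of -0.34 (SE 0.0916, unadjusted p = 0.00345 in edgeR, adjusted p = 0.819), in the group where Trim28 was higher. The Trim24 libraries did not overlap in Cas9-GFP, Stop-Cas9-GFP and Trim28-flox, where 45.2, 33.5 and 3.37% of all genes did not overlap. In Emx1-Cre cortex the values overlapped (0.07, SE 0.106). Trim33 was within 0.10 of 0 in every experiment, with SEs of 0.0941 to 0.245.

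The Setdb1 difference lay between -0.12 and 0.16 over the experiments. In Cas9-GFP nuclei the 4 Trim28-KO libraries (249 to 267 CPM) lay above the control (241), a difference of 0.11 (SE 0.138). The largest difference was in Emx1-Cre cortex, at 28.9 ± 1.91 CPM in Trim28-KO and 25.8 ± 1.12 in control (n = 3 each, SE 0.0976, adjusted p = 0.749). The HP1 gene with an unadjusted p under 0.05 was Cbx5 in Trim28-flox, at 64.3, 59.6, 65.3 and 62.9 CPM in the libraries labelled Trim28-KO and 47.2, 43.6, 46.1 and 62.2 in those labelled control. The change was 0.34 (SE 0.122, adjusted p = 0.971), and the groups overlapped through the library labelled control at 62.2 CPM. That library also stood apart in Chd4, as given below. Cbx1 and Cbx3 lay between -0.32 and 0.38, with 28.7 CPM of Cbx1 in the Stop-Cas9-GFP control against 33.6 to 41.6 in the Trim28-KO libraries, and 34.3 CPM of Cbx3 in the Cas9-GFP control against 24.7 to 31.8. The Chd3 difference was largest in NPCs, at 12.8 to 17.2 CPM in Trim28-KO against 21.4 and 15.5 (-0.31, SE 0.186). In Emx1-Cre cortex it stood at 286, 320 and 382 CPM against 291, 278 and 266 (0.24, SE 0.108, unadjusted p = 0.0435 in edgeR, adjusted p = 0.517). The 382 CPM are from the library with the low TMM factor. Without it the change was 0.13 (SE 0.0920, adjusted p = 0.637), and in TPM, which take no TMM factor, Chd3 averaged 100.1 in Trim28-KO and 106 in control cortex. Lower TPM in Trim28-KO cortex was not particular to Chd3, as Cbx1 averaged 77.6 against 85.1 and Setdb1 11.2 against 12.1. The Chd4 difference lay between -0.15 and 0.11.

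Other genes of the same machinery were taken from a list of 27. It holds the fourth TIF1 gene, a Setdb1 cofactor, the HUSH complex with Morc2a, other H3K9 methyltransferases, the rest of NuRD and 3 KRAB zinc finger genes. Of these, 26 were tested in each experiment, since Zfp708 did not pass the filter, and 0 were called by edgeR in any. Unadjusted p was under 0.05 for 2 in NPC (4.57% of all genes), 3 in Cas9-GFP (8.21%), 1 in Stop-Cas9-GFP (2.44%), 3 in Trim28-flox (4.74%) and 0 in Emx1-Cre (9.15%). DESeq2 called 1 in NPC and 0 elsewhere. That gene was Zfp809, a KRAB zinc finger gene known to silence retroviruses, named here after its value was seen. It averaged 32.2 CPM in Trim28-KO NPCs and 15.8 in lacZ libraries, a change of 1.02 (SE 0.161, adjusted p = 0.0555 in edgeR).

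The genes whose CPM followed Trim28 most closely over the 32 libraries, after the mean of each experiment was subtracted, were Wasf3 (r = 0.714), Rcor2, Vegfa, Kif22 and Bmp7 (r = 0.671), out of 16550 genes. The highest of the 8 was Cbx5 (r = 0.437), and the lowest Trim24 (r = -0.334). The centred values of Trim28 still hold its differences between labelled Trim28-KO and control (log2 -1.82 in NPC, 2.26 in Trim28-flox and -1.39 in Emx1-Cre). These correlations are therefore a description. Over the 11 control libraries without centring, Zfp345 led (r = 0.976), followed by Cdh4, Tmtc3, Trpm5 and 4932422M17Rik, and Chd3 stood at rank 16292 (r = -0.869). Those 11 points fall into groups by cell source, so they describe the groups and not a relation within them.

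The next comparison set NPCs beside adult neurons and cortex, to show which of the 9 genes the control cells carried, and at what level. Levels between genes are given in TPM, computed from counts and summed exon length. In NPC lacZ libraries the order was Cbx5 (407 TPM), Chd4 (253), Cbx3 (238), Cbx1 (203), Trim28 (138), Setdb1 (49.8), Trim24 (34.1), Trim33 (33.1) and Chd3 (6.99). The 2 libraries overlapped between Chd4, Cbx3 and Cbx1, and between Trim24 and Trim33. Trim28 was above 93.4% of the 15908 genes with at least 1 TPM there. In Emx1-Cre control cortex Chd3 led (106 TPM), followed by Cbx5 (98.7), Cbx1 (85.1), Chd4 (73.1), Cbx3 (70.6), Trim33 (31.4), Trim28 (15.7), Setdb1 (12.1) and Trim24 (7.87). Over the 3 animals the ranges of neighbours overlapped from Chd3 down to Cbx3, and the last 4 genes were apart. The nuclei labelled control of Trim28-flox mice held Chd4 (291 TPM), Chd3 (265) and Setdb1 (210). The range of Chd3 overlapped with those of Chd4 and Setdb1, which were apart from each other. All 3 lay above the other 6 genes, which averaged between 12.9 TPM (Cbx3) and 39.0 TPM (Cbx1).

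**Figure D4:**
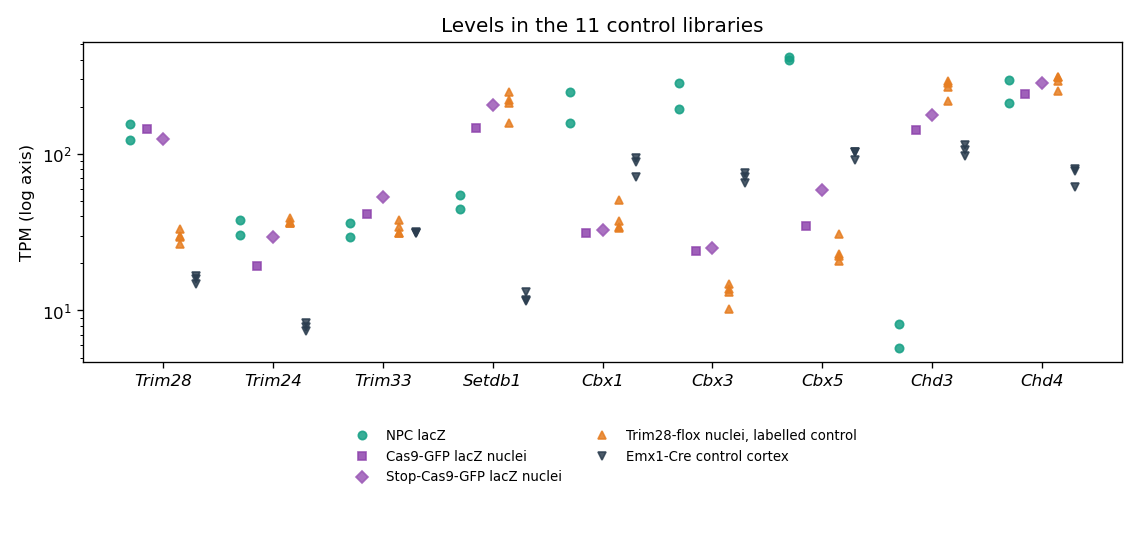
TPM of the 9 genes in the 11 control libraries, on a log axis. Symbols are libraries, coloured by cell source. Cbx1, Cbx3 and Cbx5 are highest in NPCs, Setdb1 is highest in nuclei, and Chd3 is lowest in NPCs, at 5.79 and 8.19 TPM.

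Of the 9 genes, 8 were called between NPC lacZ libraries and Emx1-Cre control cortex, where 61.8% of all genes were called, 28.8% higher and 33% lower in NPCs, and the median over all genes was -0.07. Trim28 was 6.27-fold higher in NPCs (log2 2.65, SE 0.157, adjusted p = 1.68e-08). By the study's methods, the Emx1 lineage of that cortex carried 1 allele. Trim24 was 3.08-fold higher, Setdb1 2.94-fold, Cbx5 2.94-fold, Chd4 2.48-fold, Cbx3 2.41-fold and Cbx1 1.71-fold. Trim33 was not called (-0.42, SE 0.139). Chd3 was 21.3-fold lower in NPCs (-4.41, SE 0.220, adjusted p = 3.56e-09). The call of Cbx1 was lost without the lacZ library that held 204 CPM of Trim28 (0.38, adjusted p = 0.134). Cell type, whole cells against tissue, any lost allele and library batch cannot be told apart in this comparison.

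Against the Trim28-flox nuclei labelled control, 8 genes were called, where 74.6% of all genes were, 34.6% higher and 40.1% lower in NPCs, with a median over all genes of -0.31. Cbx3 was 29.2-fold, Cbx5 26.8-fold and Cbx1 8.35-fold higher in NPCs, and Trim33 (1.57-fold) and Trim24 (1.46-fold) were also higher. Chd3 was 24.0-fold and Setdb1 2.66-fold lower. Chd4, at 0.47 (SE 0.171, adjusted p = 0.0244), was under the fold threshold, and was called by DESeq2 (0.51). Setdb1 thus lay lower in NPCs than in neuronal nuclei and higher than in cortex. For Trim28 the comparison depends on the group taken as neuronal control. NPCs were 7.38-fold above the nuclei labelled control, 1.72-fold above those labelled Trim28-KO, and 1.59-fold and 2.15-fold above the lacZ nuclei of Cas9-GFP and Stop-Cas9-GFP mice, and all 4 contrasts were called. Each lacZ arm is 1 library, which the fit assumes to vary like the other groups. Of all genes 65.3% were called against the Cas9-GFP, 64.3% against the Stop-Cas9-GFP and 62.8% against the nuclei labelled Trim28-KO. Against these 3 other sets of nuclei, which were added after seeing the data, Cbx1, Cbx3, Cbx5 and Chd4 were also higher and Chd3 and Setdb1 also lower in NPCs. Trim33 was not called against either lacZ library (0.39 and 0.26). Nuclei and whole cells differ in the RNA they hold, so cell type and RNA source cannot be told apart.

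Between the Trim28-flox nuclei labelled control and Emx1-Cre control cortex, 7 of the 9 genes were called, where 73.7% of all genes were, 34% higher and 39.7% lower in nuclei. Setdb1 was 7.81-fold, Trim24 2.10-fold and Chd4 1.79-fold higher in the nuclei. Lower were Cbx3 (12.2-fold), Cbx5 (9.14-fold), Cbx1 (4.88-fold) and Trim33 (2.10-fold). Trim28 (-0.24, SE 0.134) and Chd3 (0.17, SE 0.149) were not called. For Trim28 this too depends on the group taken as neuronal control. It averaged 29.9 TPM in the nuclei labelled control and 148 in those labelled Trim28-KO. The lacZ nuclei of Cas9-GFP and Stop-Cas9-GFP mice held 144 and 124 TPM, and control cortex 15.7.

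The make-up of each family differed between sources. Trim28 made up 67.1% of TIF1 RNA (Trim28, Trim24 and Trim33) in NPC lacZ libraries, 70.4 and 60.02% in the lacZ nuclei of Cas9-GFP and Stop-Cas9-GFP mice, and 28.6% in control cortex, where Trim33 held 57.1%. In the Trim28-flox nuclei it was 29.8% ± 3.07 in those labelled control and 69.1% ± 1.85 in those labelled Trim28-KO (SD, n = 4 each). In Trim28-KO libraries it was 39.1% ± 9.27 (SD, n = 6) in NPCs and 13.3% ± 3.00 (n = 3) in cortex. Of the summed RNA of Chd3 and Chd4, Chd4 made up 97.2% in NPCs, and 61.7 to 63.1% in lacZ nuclei, 52.4% in nuclei labelled control of Trim28-flox mice and 40.8% in control cortex. Cbx5 made up between 31.7 and 50.6% of HP1 RNA (Cbx1, Cbx3 and Cbx5) in each control source, and the sum of the 3 genes was 849 TPM in NPCs, 254 in cortex and 76.2 to 117 in control nuclei. Cbx3 is the least certain of these levels. Cbx3 has near-identical copies elsewhere in the genome, and its count was a median of 1.39 times and at most 3.50 times as high when reads with several matches were counted too, while the medians of the other 8 genes lay between 0.953 and 1.02.

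Of the 26 list genes tested, 16 were higher and 3 lower in NPCs than in control cortex, where 28.8% of all genes were called higher and 33% lower. The highest folds were those of the histone deacetylase Hdac1 (5.80-fold), the KRAB zinc finger gene Zfp57 that protects imprinted regions (5.67-fold) and the methyltransferase Ehmt1 (3.44-fold). The 3 that were lower were Chd5 (31.4-fold), the neuronal member of the Chd3 and Chd4 group, Mta3 (5.07-fold) and the TIF1 gene Trim66 (3.13-fold). Against the Trim28-flox nuclei labelled control, 14 were higher, led by the NuRD subunits Gatad2a (6.78-fold) and Gatad2b (6.29-fold) and the methyltransferase Suv39h1 (6.76-fold), and 2 were lower, Chd5 (62.4-fold) and the methyltransferase Ehmt2 (3.98-fold). In that contrast 34.6% of all genes were called higher and 40.1% lower.

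Cortical nuclei were then used to place the 9 genes in cell types. Of 14296 barcodes, 36 occurred in more than 1 of the 4 libraries. After nuclei with outlying numbers of detected genes were left out, 3065 to 3609 remained in each animal. Clusters were named from fixed markers as excitatory-like (8175 nuclei), inhibitory-like (1683), oligodendrocyte-like (1308), astrocyte-like (1185), microglia-like (691), oligodendrocyte progenitor-like (453) and meningeal or vascular-like (130), and 1 cluster of 46 nuclei was left unnamed. Cldn5, which marks endothelium, was at 0 in the meningeal or vascular class, where Slc6a13 and Col1a2 were at 390 and 292 CPM. Flt1, of the same marker list, was at 66.1 CPM there and at 264 in the unnamed cluster, which was led by Vtn, Atp13a5 and Ebf1. UMIs were summed in each animal and type, and levels are CPM of UMIs, scaled to all UMIs of that animal and type without regard to gene length, so they are compared between types and not between genes.

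**Figure D5:**
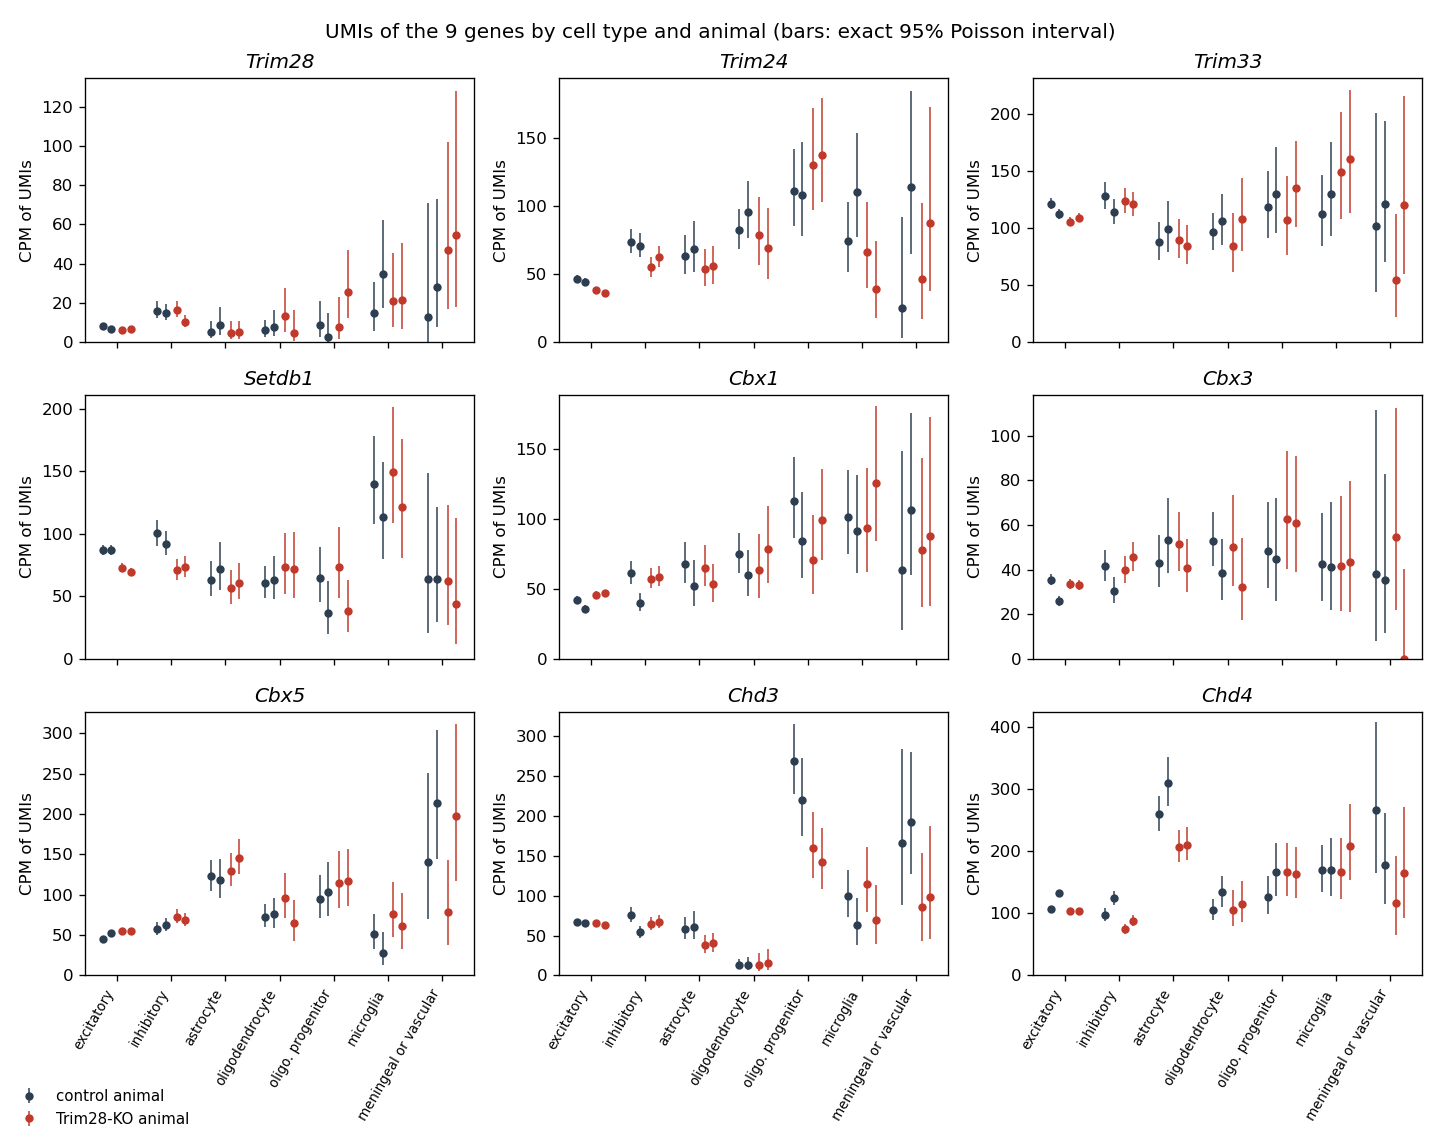
Level of each of the 9 genes in CPM of UMIs (vertical axes) in 7 cell types and 4 animals. Points are animals and bars are exact 95% Poisson intervals, which cover counting error only. The intervals of Trim28 are wide outside neurons, and Chd3 is highest in oligodendrocyte progenitors and lowest in oligodendrocytes.

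Trim28 was scarce in these libraries. In control animals it reached 15.0 and 16.1 CPM in inhibitory nuclei and 6.999 and 8.56 in excitatory nuclei, which did not overlap, and 14.8 and 34.7 in microglia. Astrocytes (5.34 and 8.70) and oligodendrocytes (6.07 and 7.89) overlapped with excitatory nuclei. Outside neurons these levels rest on 1 to 11 UMIs of Trim28 in each control animal. A UMI of Trim28 was found in 8.46 and 9.85% of excitatory nuclei in control and in 7.10 and 7.12% in Trim28-KO animals, and no cell type here is known to lack the gene, so no background share is given.

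In excitatory nuclei, Trim28 stood at 6.33 (95% interval 5.40 to 7.37) and 6.72 (5.77 to 7.79) CPM in the Trim28-KO animals 60 and 73, and at 8.56 (7.38 to 9.87) and 6.999 (5.96 to 8.17) in the controls 64 and 65. The animals did not overlap, like those of 60.1% of all genes tested, and the change of -0.30 (SE 0.172, adjusted p = 0.302) was not called, in a fit where 6.84% of all genes were called. The excitatory class pools 6 clusters whose shares differed between the groups. The cluster led by Otof and Tmc1 held 888 and 1077 nuclei in Trim28-KO and 532 and 569 in control animals, and the one led by Foxp2 and Syt6 held 163 and 77 against 269 and 273. In control animals Trim28 stood at 6.13 and 6.56 CPM in the first of these and at 10.2 and 8.90 in the other. The Trim28-KO animals stood at 6.08 and 7.37 CPM in the first and at 9.79 and 4.25 in the other, and overlapped with the controls in both. In the largest excitatory cluster, of 3653 nuclei, they stood at 5.99 and 5.88 CPM against 10.1 and 6.59 in the controls. The part of the cluster shares in the excitatory values was not tested. In inhibitory nuclei, which derive from progenitors outside the Emx1 lineage, Trim28 stood at 16.5 and 10.6 against 16.1 and 15.0 (-0.22, SE 0.258, adjusted p = 0.733, background 0). The changes in the 2 types differed by -0.10 (SE 0.269, adjusted p = 0.928, background 1.9%). Trim28 had too few UMIs to be tested in the other types. In bulk RNA of the cortex of the same 4 animals, Trim28 was at 6.08 and 8.53 against 20.9 and 19.0 CPM. The nuclei libraries count the 3′ ends of transcripts, introns included, and where the loxP sites lie in Trim28 is not given in the sources used here. If the counted end lies outside the excised part, these UMIs do not check the deletion.

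None of the other 8 genes was called in any type, in 51 tests by edgeR, of which 8 had an unadjusted p under 0.05, and DESeq2 also called 0. These 8 tests were 2 in excitatory nuclei (28% of all genes), 3 in inhibitory (14.5%), 2 in astrocyte (14.5%) and 1 in oligodendrocyte progenitor nuclei (9.1%), with 0 in oligodendrocytes (12.9%), microglia (7.06%) and meningeal or vascular nuclei (2.95%). The share of all genes called was 6.84% in excitatory, 0 in inhibitory, 2.09% in astrocyte, 2.98% in oligodendrocyte and 0.299% in oligodendrocyte progenitor nuclei, and 0 in microglia and in meningeal or vascular nuclei. Setdb1 stood at 72.9 and 69.4 CPM in Trim28-KO and at 86.9 and 87.1 in control excitatory nuclei (-0.34, SE 0.0953, adjusted p = 0.0763), and at 70.8 and 73.5 against 92.2 and 100.2 in inhibitory nuclei (-0.43, SE 0.127, adjusted p = 0.197). Trim24 stood at 36.1 and 38.5 against 44.1 and 46.8 in excitatory nuclei (-0.33, SE 0.104, adjusted p = 0.0978), and at 55.0 and 62.5 against 70.9 and 74.0 in inhibitory nuclei (-0.32, SE 0.138). In both types the animals did not overlap for either gene, where 60.1% of all genes in excitatory and 47.1% in inhibitory nuclei did not overlap. In bulk cortex the differences were 0.16 for Setdb1 and 0.07 for Trim24, neither called. Chd4 stood at 74.2 and 87.6 against 97.9 and 124 in inhibitory nuclei (-0.48, SE 0.153, adjusted p = 0.229) and at 207 and 211 against 260 and 311 in astrocytes (-0.44, SE 0.144, adjusted p = 0.169). Chd3 stood at 143 and 159 in Trim28-KO and at 219 and 268 in control oligodendrocyte progenitors (-0.72, SE 0.209, adjusted p = 0.236), and at 38.3 and 40.5 against 58.0 and 60.9 in astrocytes (-0.59, SE 0.215, adjusted p = 0.226). Of the 8 genes, 7 did not overlap in excitatory nuclei, 4 in inhibitory nuclei, 5 in astrocytes (background 44.3%), 2 in oligodendrocytes (42.3%), 4 in oligodendrocyte progenitors (39.1%), 3 in microglia (37.7%) and 2 in meningeal or vascular nuclei (28.9%).

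Between types of control nuclei, Chd3 ranged from 12.8 and 13.5 CPM in oligodendrocytes to 219 and 268 in oligodendrocyte progenitors, with 65.9 and 66.7 in excitatory nuclei. Chd4 stood at 260 and 311 in astrocytes and at 107 and 133 in excitatory nuclei. Setdb1 was highest in microglia (114 and 140), above inhibitory nuclei (92.2 and 100.2). Cbx5 stood at 28.4 and 50.8 in microglia, overlapping with excitatory nuclei (45.1 and 52.3), and at 118 and 123 in astrocytes. Trim24 stood at 44.1 and 46.8 in excitatory nuclei and at 108 and 111 in oligodendrocyte progenitors, and Trim33 at 87.8 to 129 over all 7 named types. Cbx1 lay between 35.8 and 61.5 in both neuron types and between 84.5 and 113 in oligodendrocyte progenitors. Excitatory and inhibitory nuclei held a median of 11020 and 8414 UMIs and the other named types 1813 to 3591, and the types come from the same animals, so these levels are a description, with no test.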

How the data were processed

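Per the file headers and the study's methods, the authors mapped stranded paired reads with STAR 2.6.0 to GRCm38.p6 and deposited unique-read counts per gene from featureCounts 1.6.3 (GENCODE annotation), gene counts from TEtranscripts that include reads with several matches, and UMI counts of nuclei from Cell Ranger 3.0 with introns included. Here the counts were tested with edgeR 4.0.16 (filterByExpr, TMM, quasi-likelihood test, Benjamini-Hochberg adjustment over all genes) in R 4.3.3, each experiment alone, with DESeq2 1.42.0 as an alternative. The edgeR steps of the bulk experiments were also run on simulated counts. These were drawn independently, without series or batch effects, so that run does not address such effects. TPM was computed from the counts and the exon length in the deposited table. Nuclei within 3 median absolute deviations of the median number of detected genes were clustered with Seurat 5.3.0 (2000 variable genes, 20 components, resolution 0.1), and UMIs were summed by animal and type for types with 20 nuclei or more in each animal and tested at an adjusted p under 0.05. Scrublet in scanpy 1.11.5 marked 0.421 to 1.92% of barcodes as doublets, which were kept. Named were all 9 genes, list genes called in a knockout comparison or among the 3 highest folds in each direction between control sources, and the 5 genes most like Trim28. The members and lists were chosen with earlier results of these data known. NPC libraries of the same number series deviated together (r = 0.684 to 0.706 for g3, g4 and g13 each paired with lacZ, and 0.532 to 0.673 between guides). No number series was set for the Trim28-flox libraries, so their SEs do not allow for libraries that deviate together. Library depth ran from 8790346 to 25345083 counts, and intervals cover counting error only. Tables of repeat elements and the CUT&RUN samples were not used here.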

Additional observations from a re-analysis of the deposited data

Results flagged for a closer look

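In 3 of 45 groups of libraries, 1 library lay apart from the rest by Dixon's criterion, where chance gives about 2.25. Trim24 was at 105 CPM in 1 NPC Trim28-KO library with g3, against 67.6 to 81.4 in the other 5. Chd4 was at 451 CPM in the Cas9-GFP Trim28-KO library with g3, against 485 to 491 in the other 3. It was at 456 CPM in 1 Trim28-flox library labelled control, against 549 to 567 in the other 3. The library labelled Trim28-KO with the next number was also low in Chd4, at 400 CPM against 487 to 542 for its label. In Setdb1 this pair held 231 and 243 CPM, against 310 to 400 in the other Trim28-flox libraries. In Cbx1 the pair held 48.9 and 48.6 CPM, against 32.9 to 38.5. Trim28 in the pair lay within the range of each label. The pair thus deviated together in some genes across the labels, and the cause was not tested. The change of Trim28 differed between experiments in 5 of 10 pairs by edgeR, by -1.88 for NPC minus Stop-Cas9-GFP (adjusted p = 0.0132), -4.12 for NPC minus Trim28-flox (adjusted p = 7.55e-13), -2.75 for Cas9-GFP minus Trim28-flox (adjusted p = 1.73e-06), -2.24 for Stop-Cas9-GFP minus Trim28-flox (adjusted p = 0.000102) and 3.69 for Trim28-flox minus Emx1-Cre (adjusted p = 7.83e-11). The last 4 involve the experiment in which Trim28 goes against its labels, where 4 of 4 libraries labelled Trim28-KO lay above 4 of 4 labelled control.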

How the results depend on the processing

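The NPC change of Trim28 ranged from -1.997 to -1.62 without 1 library at a time and lost its call in 6 of these 8 fits, without either g4 library, either lacZ library, 1 of the g3 or 1 of the g13 libraries. With the number series as a replicate block it was -1.81 (adjusted p = 0.0118), and the block changed no call. By exact permutation the Emx1-Cre change of Trim28 (-1.39) had p = 0.1, the smallest that 3 against 3 animals allow. Of 179 alternatives to the values that answer a comparison, 172 were scored as unchanged. The sign changed in 6, of which 5 were the Trim28 change in Stop-Cas9-GFP and 1 the difference between excitatory and inhibitory nuclei. Neither was called, and 0 called values changed sign. A test was scored as unchanged if it kept its side of the threshold, whatever its sign or size where it was not called. A count was so scored if it stayed near the main count. Counts so scored ranged from 4 to 6 for the pairs called. For baseline members called they ranged from 7 to 8 against cortex and from 8 to 9 against Trim28-flox nuclei. Of 811 alternatives for single genes and pairs, 30 changed sign and 15 did not keep their side of the threshold. Of those 15, 10 were Chd4 between NPCs and Trim28-flox nuclei, 2 Trim33 in that contrast, 1 Cbx1 against cortex and 2 pair differences of Trim28. The single control libraries of Cas9-GFP and Stop-Cas9-GFP could not be left out. The cause of these changes was not tested. UMIs of Trim28 outside neurons were too few for a test.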

Other observations

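Oligodendrocyte-like nuclei, whose markers in bulk cortex did not overlap between the groups, numbered 233 and 163 in the Trim28-KO animals and 569 and 343 in the controls. Excitatory-like nuclei numbered 2252 and 2344 against 1736 and 1843. With 2 animals a group an exact permutation test could not pass 0.05, and none was run.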
